A study of Mus musculus with 2 samples.

Results

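The miR-103 and miR-107 family of the mouse comprises 3 microRNA (miRNA) genes, Mir107, Mir103-2 and Mir103-1, which lie in introns of genes for pantothenate kinases. They were chosen by name, as the 3 of 2202 annotated miRNA genes in the count tables whose gene name in GENCODE release M21 is one of these symbols. Small RNA was sequenced from C57BL/6 mouse hippocampus (wild type, strain B6NCrl, adult, 6 months old). The labels call the animal male in a description, leave sex as not collected in its own field, and call the tissue a layer of hippocampus without naming the layer. There were 2 libraries, numbered biological replicates 1 and 2 of 1 group, and no other condition. The tissue carried no treatment or allele that the labels name. Both libraries carry 1 donor identifier, and no label says that the tissue came from separate animals. The differences given below may then be technical, and p-values compare the reads of 2 libraries.

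Animal miRNAs are cut from hairpin transcripts, and a mature strand of the hairpin (the 5p or the 3p arm) guides silencing complexes to messenger RNAs that pair with its seed, bases 2 to 8. The hosts of these hairpins, Pank1, Pank2 and Pank3, encode pantothenate kinases, the enzymes of the first step of coenzyme A synthesis. In mouse liver and fat, miR-103 and miR-107 are known as regulators of insulin sensitivity, and both are known as miRNAs of the brain.

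The mature sequences are shown because they decide which reads can be told apart. They are given 5′ to 3′ from RefSeq (GRCm38.p6), with the seed in capitals, and the entries of all 3 genes were found there.
miR-107-3p: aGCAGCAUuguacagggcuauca
miR-103-3p: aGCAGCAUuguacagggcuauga
miR-107-5p: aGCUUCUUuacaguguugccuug
miR-103-2-5p: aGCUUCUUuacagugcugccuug
miR-103-1-5p: gGCUUCUUuacagugcugccuug

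All 3p arms had the seed GCAGCAU, and no other mature miRNA name in the RefSeq table had it. All 5p arms had the seed GCUUCUU, again with no other name. The 3p arm of Mir103-1 was identical to that of Mir103-2. The 3p arm of Mir107 differed from both by 1 substitution, G22C, counted from the 5′ end with the miR-103-3p base first, and 1 base follows it. Any start of miR-107-3p shorter than 22 bases therefore stands in all 3 hairpins. The 5p arm of Mir103-1 differed from that of Mir103-2 by A1G at the first base. The 5p arm of Mir107 differed from that of Mir103-2 by C16U.

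The hairpins are shown to place these arms, which are in capitals.
Mir107: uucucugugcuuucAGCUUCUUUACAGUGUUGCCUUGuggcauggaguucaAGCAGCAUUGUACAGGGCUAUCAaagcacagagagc
Mir103-2: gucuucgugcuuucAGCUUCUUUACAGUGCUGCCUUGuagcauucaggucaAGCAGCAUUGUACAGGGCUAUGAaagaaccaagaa
Mir103-1: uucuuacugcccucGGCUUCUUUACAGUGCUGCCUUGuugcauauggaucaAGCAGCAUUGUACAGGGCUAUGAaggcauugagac

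Within each hairpin the 5p arm ran from base 15 to base 37 and the 3p arm from base 52 to base 74. The longest stretch shared by Mir103-2 and Mir103-1 was 27 bases (bases 49 to 75 of both), and it contains the whole 3p arm. Mir107 shared at most 24 bases with either of them (bases 49 to 72). In a global alignment Mir107 was 83.9% identical to Mir103-2 and 80.9% identical to Mir103-1, and the Mir103 hairpins were 80.2% identical to each other. No stretch of 18 or more bases of any of the 3 hairpins stood in another annotated miRNA hairpin outside the family. Of the windows of 20 bases, 59 of 68 in Mir107 (86.8%), 51 of 67 in Mir103-2 (76.1%) and 55 of 67 in Mir103-1 (82.1%) were found in no other annotated hairpin. In the 5p arms, bases 2 to 23 of miR-103-1-5p stood unchanged in Mir103-2. A genome sequence was not used here, so copies outside annotated hairpins were not searched.

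**Figure D1:**
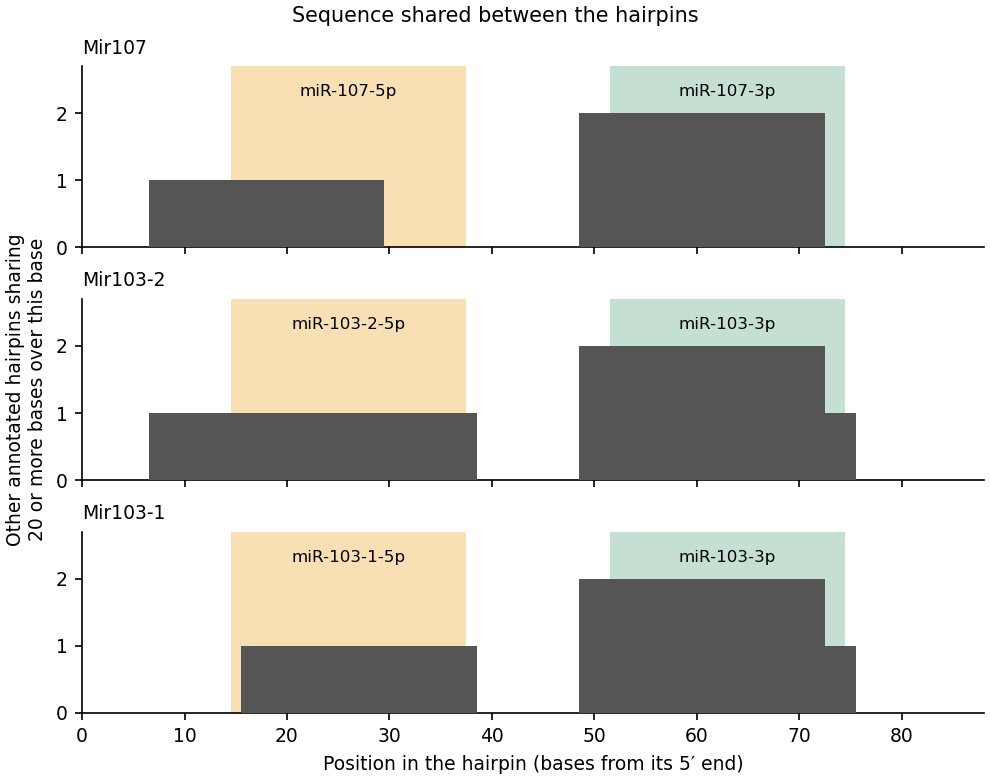
Sequence shared by the hairpins of Mir107, Mir103-2 and Mir103-1. The x axis is the position in bases from the 5′ end of the hairpin. For all windows of 20 bases over a position, the bar gives the highest number of other annotated hairpins holding the same window. Hairpins that share different windows are not added up. In Mir103-2, bases 7 to 29 stand in Mir107 and bases 16 to 38 in Mir103-1, and the bars there are at 1. Shading marks the 5p arm (yellow) and the 3p arm (green). Over most of the 3p arm the count is 2, and at its 3′ end it is 0 in Mir107 and 1 in both Mir103 genes.

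The positions of the 3 genes were alike. Mir107 (ENSMUSG00000065594.1) lies on the minus strand at chr19:34820687-34820773 (mm10), in intron 5 of the 6 introns of the Pank1 transcript Pank1-201, 326 bases past the upstream exon. Mir103-2 (ENSMUSG00000065563.1) lies on the plus strand at chr2:131288052-131288137, in intron 5 of 6 of Pank2-204, 454 bases past the upstream exon. Mir103-1 (ENSMUSG00000065553.1) lies on the plus strand at chr11:35782396-35782481, in intron 5 of 6 of Pank3-201, 688 bases past the upstream exon. Each stands on the strand of its host, and these introns are 7282, 5801 and 1740 bases long. Other annotated transcripts of Pank1 and Pank2 number the intron differently, and no host transcript has an exon over a hairpin. Each of these hosts holds 1 miRNA gene of the tables, and Pank4, the remaining gene of that name series, holds 0.

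Replicate 2 held 12627039 reads, of which 5041568 were counted on miRNA genes, and replicate 1 held 11106392 reads, of which 4247092 were counted. Reads aligned to more than 1 place, 45.7% of replicate 2 and 43.8% of replicate 1, are in no gene's count. Levels are given as CPM, counts scaled to the gene counts of the library. A gene with 0 counts could stand at up to 3 counts, which is 0.595 CPM in replicate 2, and 0.706 in replicate 1. The labels name no molecular identifiers, so intervals and limits cover counting error only. Beside the tissue label, 18 neuronal miRNA genes were listed, of which 13 reached 10 CPM in both libraries, where 13.7% of all 2202 genes did. No other tissue was compared, so this cannot tell hippocampus or a layer of it from other brain tissue. The summed level of the 18 genes in replicates 2 and 1 was 188277 and 209785 CPM, of which Mir139 alone held 153300 and 156599 CPM. The defining neuronal genes Mir124a-1, Mir124a-2 and Mir124a-3, whose mature sequence is repeated in the genome, together had 13 counts in each library.

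Mir107 accounted for nearly all counted reads of the family. It had 10548 counts in replicate 2 and 16165 counts in replicate 1. Its level in replicate 2 was 2092 CPM, with an exact 95% Clopper-Pearson interval of 2053 to 2132. In replicate 1 it was 3806 CPM (3748 to 3865), and the mean was 2949 ± 1212 CPM (SD, n = 2). It ranked 61st and 45th among the 2202 genes in replicates 2 and 1. Its interval in one library lies wholly outside that in the other, with replicate 2 the lower.

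Mir103-2, the Pank2 gene, was counted at a far lower level. It had 124 counts in replicate 2 and 161 in replicate 1, which are 24.6 CPM (exact 95% interval 20.5 to 29.3) and 37.9 CPM (32.3 to 44.2), or 31.3 ± 9.41 CPM (SD, n = 2). It ranked 265th in replicate 2 and 240th in replicate 1. Mir103-1, the Pank3 gene, had 18 counts in replicate 2 and 25 in replicate 1. These are 3.57 CPM (exact 95% interval 2.12 to 5.64) and 5.89 CPM (3.81 to 8.69), or 4.73 ± 1.64 CPM (SD, n = 2), and here the intervals of the libraries overlap. All 3 genes had 0 counts on the opposite strand in both libraries, and their counts without regard to strand were the same as on the gene's strand.

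**Figure D2:**
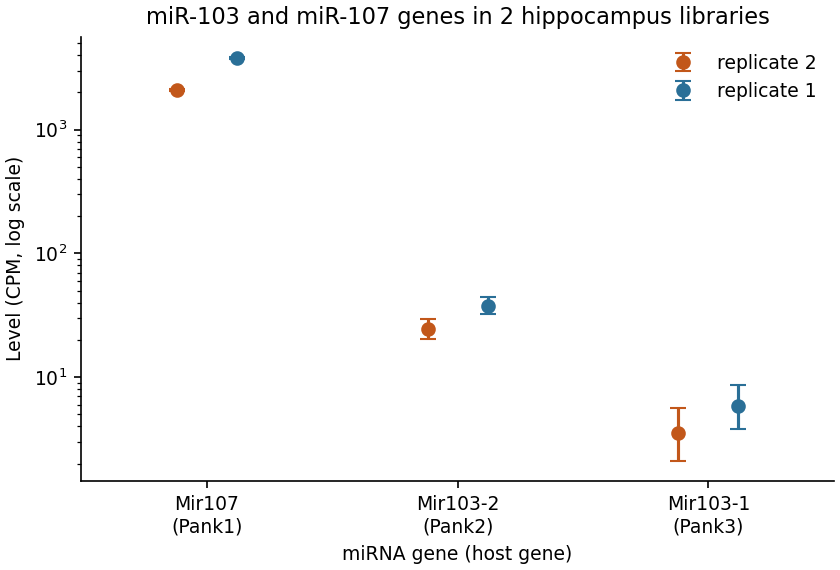
Levels of the 3 genes in CPM (log axis) in replicate 2 (orange) and replicate 1 (blue). Points are single libraries and bars are exact 95% intervals of the count. Mir107 stands at 2092 and 3806 CPM, Mir103-2 at 24.6 and 37.9 CPM and Mir103-1 at 3.57 and 5.89 CPM in replicates 2 and 1, with no overlap between genes.

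The order Mir107, Mir103-2, Mir103-1 was the same in both libraries, and the intervals of neighbouring genes did not overlap in either. In replicate 2, 98.7% of the family's counts were on Mir107 (exact 95% interval 98.4 to 98.9%), and in replicate 1, 98.9% were (98.7 to 99.0%). Mir103-2 held 1.16% and 0.985%, and Mir103-1 held 0.168% and 0.153%, in replicates 2 and 1. These ratios compare reads that aligned to 1 place. The complete sequence of miR-103-3p stands in both Mir103 hairpins, so a read of exactly that sequence matches both. The counts on Mir103-1 and Mir103-2 therefore do not measure the level of miR-103-3p, and how much miR-103 the tissue held relative to miR-107 cannot be read from these tables. For Mir107, reads that end before base 22 of the 3p arm match all 3 hairpins, and the part of its reads lost in this way was not measured.

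A level of at least 10 CPM in both libraries was reached by Mir107 and Mir103-2 and not by Mir103-1, where 13.7% of all 2202 genes reached it. Scaled to all reads of the library, Mir103-2 stood at 9.82 in replicate 2 and did not reach 10. The genes of other families were grouped in the same way by their arms. Of 1018 genes whose RefSeq arms could be matched, 908 had no arm in another hairpin, and 26.2% of these reached 10 CPM in both libraries. Mir107 belongs to that group and ranked 41st in it. A further 61 genes had an arm that stands in another hairpin beside one that does not, as both Mir103 genes do, and 55.7% of them reached 10 CPM. Of 49 genes whose every arm stands in another hairpin, 12.2% did. For the 61 genes the median level was 27.8 CPM. Mir103-2 ranked 29th of the 61 and Mir103-1 ranked 40th.

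**Figure D3:**
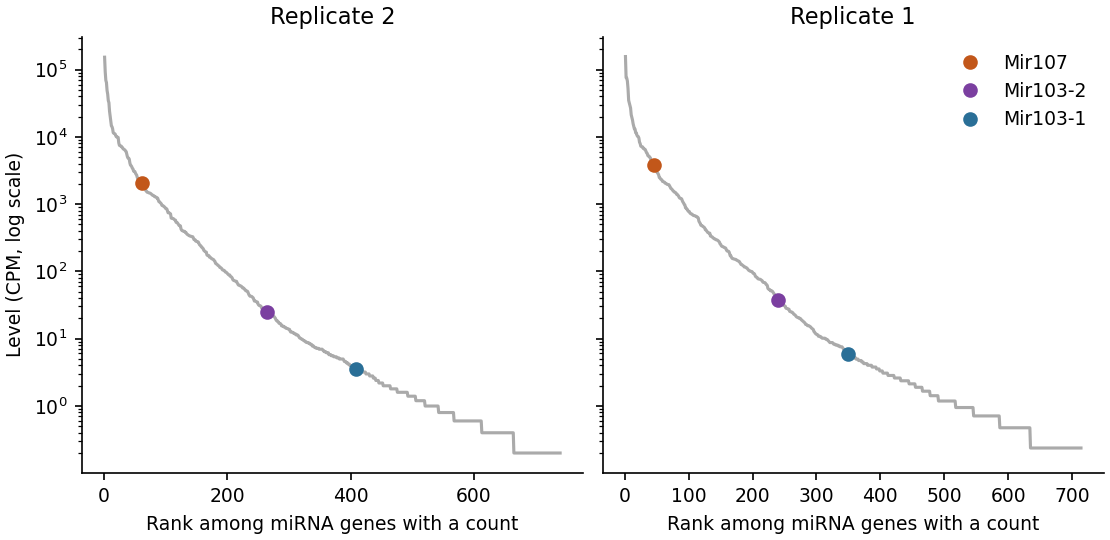
Level in CPM (log axis) against rank for all miRNA genes with at least 1 count in replicate 2 (left) and replicate 1 (right). The coloured points are Mir107, Mir103-2 and Mir103-1, at ranks 61, 265 and 409 in replicate 2 and at ranks 45, 240 and 349 in replicate 1.

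The libraries were then compared. Mir107 and Mir103-2 were lower in replicate 2, and the lower count of Mir103-1 did not pass the test. The log2 ratio of replicate 2 over replicate 1 (0.5 counts added to each) was −0.86 for Mir107 (exact 95% interval −0.90 to −0.83). For Mir103-2 it was −0.62 (−0.97 to −0.28), and for Mir103-1 it was −0.71 (−1.68 to 0.21). The intervals were computed from the counts without the added 0.5. In an exact two-sided binomial test with Benjamini-Hochberg adjustment over all 522 genes with at least 10 counts, Mir107 passed at 0.05, with a p too small for the computation to hold. Mir103-2 passed with an adjusted p of 0.00072 by the exact test, and Mir103-1 did not (adjusted p = 0.196, exact test). So 2 of the 3 genes passed as lower in replicate 2, beside 22.8% of all 522 genes, of which 51.0% passed in either direction. With TMM scaling 25.9% passed as lower and 23.6% as higher, against 28.2% higher without it. Passing is common at this depth.

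The size of the ratio was set against other genes. Among the 276 genes whose mean count was 100 or more, 21 had a log2 ratio at or below that of Mir107 (7.61%). At least as far from 0 in either direction were 44, and both counts include Mir107 itself. The median size of the log2 ratio over these genes was 0.36. A change in the balance between members was not detectable at this depth. The ratio of Mir107 to Mir103-2 in replicate 2 was 85.1, with an exact 95% interval of 71.3 to 102.4. In replicate 1 it was 100.4 (86.0 to 118), a ratio of ratios of 0.847 (0.665 to 1.08). Fisher's exact test gave an adjusted p of 0.541 for this pair. Mir103-2 over Mir103-1 was 6.89 in replicate 2 and 6.44 in replicate 1, a ratio of ratios of 1.07 (0.533 to 2.18; exact test, adjusted p = 0.870). For Mir107 over Mir103-1 the ratio of ratios was 0.906 (0.475 to 1.76; exact test, adjusted p = 0.870). These p-values are adjusted over the 3 pairs, and the intervals leave room for moderate shifts.

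Marker genes of the tissue's cell types also differed between the libraries. Of 8 choroid plexus and ependyma genes, 6 had at least 10 counts, 4 passed as lower in replicate 2 and 1 as higher, where 22.8% and 28.2% of all 522 genes did. The sum of their levels in replicates 2 and 1 was 3408 and 11342 CPM, and 1 of the 8, Mir449b, had no count in either library. Mir204, expressed in choroid plexus epithelium, had 2780 CPM in replicate 2 and 7102 CPM in replicate 1. Of 18 neuronal genes, 17 were tested, 7 passed as lower and 5 as higher, with a median log2 ratio of −0.03. Among them Mir139, the highest, stood at −0.03, Mir128-1 at −0.12, Mir138-1 at 0.05 and Mir132, an activity-regulated gene, at −1.13. Of 3 endothelial and mural genes, the smooth muscle genes Mir143 (−0.67) and Mir145a (−0.58) passed as lower and the endothelial Mir126a (0.30) as higher, and the list summed to 8769 and 8456 CPM in replicates 2 and 1. All 5 microglia and leukocyte genes were tested, 3 passed as lower and 0 as higher, and their sum was 2627 and 2926 CPM. None of the 3 erythroid genes passed, of which 2 were tested (sum 23.8 and 18.8 CPM). Of 3 oligodendrocyte genes, all tested, 2 passed as higher, and their sum was 8786 and 5817 CPM in replicates 2 and 1. Their part in the family's ratio was not tested. The labels give the libraries unlike versions of a protocol for trimming adapters, which cannot be told apart from the replicate. In bulk tissue, fewer cells of a type and less RNA per cell cannot be told apart either.

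**Figure D4:**
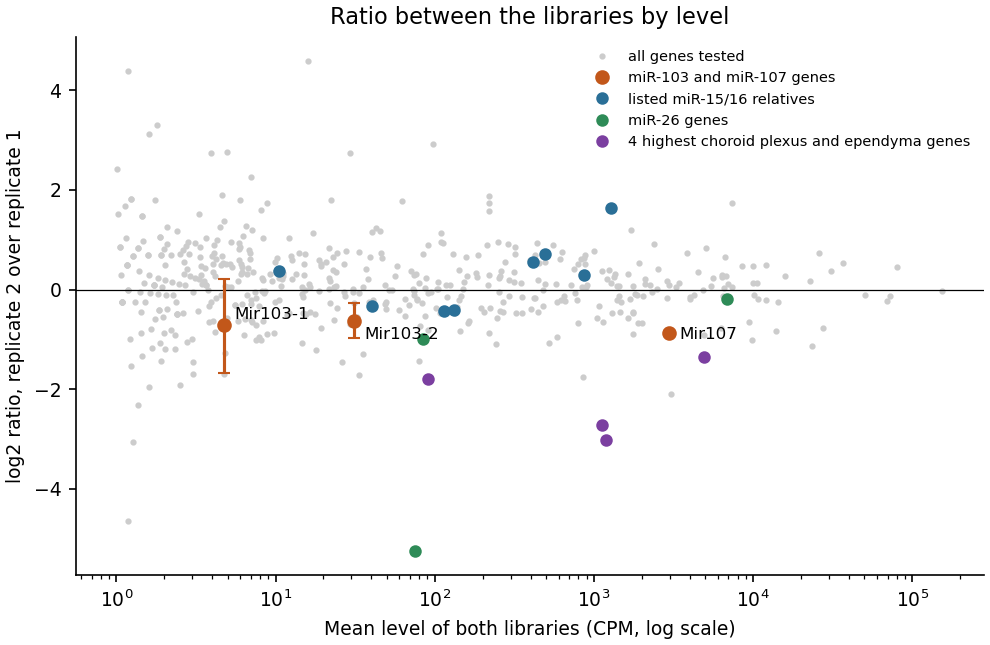
Log2 ratio of replicate 2 over replicate 1 against mean CPM (log axis) for the 522 genes tested (grey). The miR-103 and miR-107 genes (orange, exact 95% intervals) lie at −0.86, −0.62 and −0.71. The listed miR-15/16 relatives (blue) lie on both sides of 0. The miR-26 genes (green) and the 4 highest choroid plexus and ependyma genes (purple) lie below 0. Of the 6 choroid plexus and ependyma genes tested, 1 passed as higher in replicate 2 and is not coloured.

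Relatives by seed were described next. Bases 1 to 7 of miR-103-3p and miR-107-3p, AGCAGCA, are the seed of the miR-15/16 miRNAs, known as regulators of cell division and survival. The shift by 1 base is shown by 3 of them, with the seed in capitals.
miR-15b-5p: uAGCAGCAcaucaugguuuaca
miR-16-5p: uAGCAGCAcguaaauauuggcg
miR-195a-5p: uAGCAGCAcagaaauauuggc

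An arm with this seed was found in the RefSeq table for 11 genes, of which 8 stood in the list of relatives used here and 3 (Mir6342, Mir6353 and Mir6419) had 0 counts in both libraries. Of the 11, 7 were tested, 4 passed as higher in replicate 2 and 2 as lower, where 28.2% and 22.8% of all 522 genes passed. Their median log2 ratio was 0.28, against 0.09 over all 522 genes and −0.71 for the 3 genes of the miR-103 and miR-107 family. The value −0.71 is the ratio of Mir103-1, from 18 and 25 counts, which did not pass. The sum of the 11 genes with this seed was 4244 CPM in replicate 2, against 2444 CPM in replicate 1. That of the miR-103 and miR-107 genes was 2120 and 3850 CPM. So in reads aligned to 1 place the family was the lower sum in replicate 2 and the higher in replicate 1. Mir16-1 and Mir16-2 share a mature sequence, as the Mir103 genes do, and a read of exactly that sequence matches both. The sums therefore do not rank the levels of the mature miRNAs.

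Mir195a had the highest mean level of these relatives, with 1933 CPM in replicate 2 and 620 CPM in replicate 1, and passed as higher in replicate 2 (log2 ratio 1.64). Its neighbour Mir497 had 958 and 787 CPM, Mir15b had 614 and 375 CPM, and Mir15a had 492 and 335 CPM in replicates 2 and 1, and all passed as higher. Mir322 (114 and 151 CPM) and Mir16-1 (97.4 and 131 CPM) passed as lower. Mir16-2 (36.1 and 45.2 CPM) did not pass, and Mir195b had 0 counts in both libraries. The list also held 3 genes with no arm of this seed in the RefSeq table. Of these, Mir503 (11.9 and 9.18 CPM) did not pass, Mir1907 had 3 counts in replicate 2 and 0 in replicate 1, and Mir497b had 0 in both. Mir107 stood above each of these genes in both libraries, in counted reads.

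The miR-26 genes are another family spread over introns of related hosts, the Ctdsp phosphatase genes. Mir26b had 6385 CPM in replicate 2 and 7278 CPM in replicate 1. Mir26a-2 had 56.5 and 112 CPM, and Mir26a-1 had 3.77 and 146 CPM, in replicates 2 and 1. As in the miR-103 and miR-107 family, the gene with a mature sequence of its own was counted far above the pair that shares one. Reads that match both genes of such a pair are left out of the counts. The levels of miR-26a and miR-26b therefore cannot be compared from them. The balance of the Mir26a pair differed between the libraries, since Mir26a-2 held 93.8% of the pair's counts in replicate 2 and Mir26a-1 held 56.6% in replicate 1.

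The balance of Mir103-2 and Mir103-1 was set beside other groups of genes that share a mature sequence, 24 groups with the Mir103 pair included, each with at least 10 counts. Mir103-2 held 87.3% of the pair's counts in replicate 2 and 86.6% in replicate 1. The median share of the highest locus was 80.3% in replicate 2 and 76.0% in replicate 1. In 21 of the 24 groups the same locus was highest in both libraries, and the Mir103 pair ranked 8th by the mean share of its highest locus. All of these shares rest on the reads that aligned to 1 place.

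**Figure D5:**
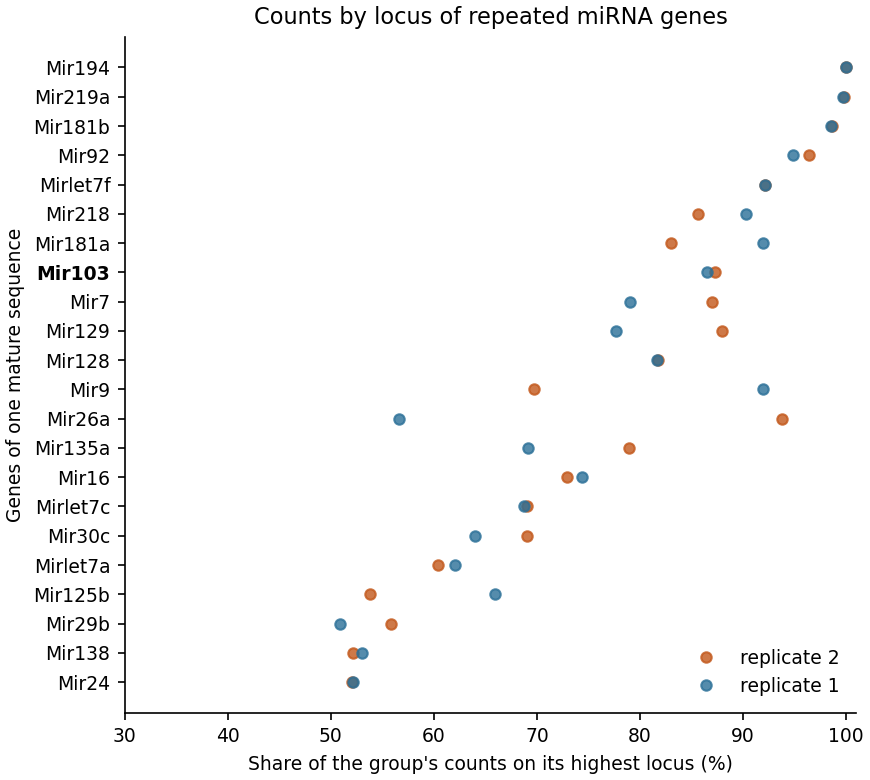
Share of counts on the highest locus (percent, axis from 30) for 22 groups of miRNA genes with one mature sequence and at least 100 counts over both libraries, in replicate 2 (orange) and replicate 1 (blue). Mir103 stands at 87.3% and 86.6%, and for Mir26a the highest locus is Mir26a-2 in replicate 2 (93.8%) and Mir26a-1 in replicate 1 (56.6%).

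The genes most like each member in level were named by the distance of their log2(CPM + 1) values over the 2 libraries. For Mir107 the nearest 3 were Mir378a at a distance of 0.49, Mir129-2 at 0.67 and Mir138-2 at 0.69. Mir378a had 2709 CPM in replicate 2 and 3037 CPM in replicate 1, so its libraries lay closer together than those of Mir107. For Mir103-2 they were Mir7-1 at 0.09 (26.2 and 38.6 CPM in replicates 2 and 1), Mir679 at 0.14 and Mir214 at 0.24. For Mir103-1 they were Mir211 at 0.12, Mir3082 at 0.23 and Gm49347 at 0.25. With 2 libraries of 1 group, this is a likeness of level and says nothing of a pattern across conditions.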

How the data were processed

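Small RNA libraries of 1 group (2 replicates) were analysed. The authors deposited raw read counts per annotated miRNA gene, placed on mm10 with GENCODE M21 per the file headers. The aligner and counter: not given in the sources used here. Sense-strand counts were analysed, from which reads aligned to more than 1 place are absent. The 4 summary rows (60.1% of the reads of replicate 2 and 61.8% of replicate 1) stayed out of library sizes and tests. CPM was computed over all 2202 gene rows. Alternative scaling used TMM (edgeR 4.0.16) and DESeq2 1.42.0 size factors (R 4.3.3). The quasi-likelihood test of edgeR could not be fitted to 1 library against 1, so an exact binomial test was used, tested on simulated data. The simulated counts held counting error and set changes only, so variation between replicates was not covered. Python 3.11.15, scipy 1.17.1 and biopython 1.88 were used. Genes were named by a rule: the members, the 3 nearest genes in level to each, all miR-15/16 and miR-26 genes, and the 4 highest genes of other lists. Of the listed symbols, Mir424, Mir497a, Mir378, Mir7a-1 and Mir7a-2 matched no gene. The members and lists were chosen with earlier results of these data known. Alternatives were scaling, counting column, pseudocount, filter and leaving out a library.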

Additional observations from a re-analysis of the deposited data

How the results depend on the processing

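Of 80 recomputed values, 73 stayed on the same side of the threshold, within 1.5 times the count of genes or within 1 SD of the level. Some of the 73 could not move. With 2 libraries, each level lies within 1 SD of their mean, so leaving out a library could not fail. The members had 0 counts on the opposite strand, so their shares and ratios to each other were the same without regard to strand. Scaled to all reads of the library in place of gene counts, the mean levels in CPM were 1145 for Mir107, 12.2 for Mir103-2 and 1.84 for Mir103-1, and on the opposite strand all were 0. Leaving out a library gave 2092 to 3806 CPM for Mir107, 24.6 to 37.9 CPM for Mir103-2 and 3.57 to 5.89 CPM for Mir103-1. Their shares of the family's counts ranged from 98.7 to 98.9%, from 0.985 to 1.16% and from 0.153 to 0.168%. Under TMM the log2 ratios were −0.94, −0.70 and −0.78, and no member's call in the test between libraries changed. Over all genes tested, those passing as lower in replicate 2 went from 119 to 135, and those passing as higher from 147 to 123. The minimum of 10 CPM was lost for Mir103-2 (9.82 in replicate 2) when scaled to all reads, an alternative chosen after seeing the data. Without a library no ratio between libraries exists. No paired analysis was possible because there is 1 group. At this depth 18 and 25 counts limit Mir103-1.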

Other observations

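Further genes known for roles in lipid and glucose metabolism, processes that miR-103 and miR-107 are known to regulate in mouse liver and fat, were counted as a list. Of 12 such genes in the tables, 11 were tested, 3 passed as higher in replicate 2 and 6 as lower (28.2% and 22.8% of all 522 genes did), with a median log2 ratio of −0.12 against 0.09 over all of them. The highest were Mir29a (17509 CPM in replicate 2 and 14416 CPM in replicate 1) and Mir34a (4823 and 2908 CPM), which passed as higher in replicate 2. Next were Mir378a (2709 and 3037 CPM) and Mir143 (1545 and 2456 CPM), which passed as lower. The list was chosen with earlier results of these data known.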
